A study of Mus musculus with 7 samples.

Results

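The contractile genes of smooth muscle were followed through 7 colon tumors, as a measure of how much muscle each dissected piece of tissue held. The set has 10 members, chosen by name among the 43346 genes of the count table: the actins Acta2 and Actg2, the myosin chains Myh11 and Myl9, the actin-binding proteins Tagln, Cnn1, Lmod1 and Smtn, and the intermediate filament proteins Des and Synm. Each symbol matched 1 row, each row was measured in every tumor, and all 10 passed the filter on low counts. Every mouse was a wild-type recipient (C57BL6/J and 8 weeks old per the labels, congenic CD45.1 and younger in the study's methods) whose hematopoietic system had been replaced by BM transplantation. Donor BM was Dnmt3a(+/-) in 4 mice and Dnmt3a(+/+) in 3. In the study's methods the deletion was driven by Mx1-Cre after poly(I:C), and donors of both groups carried Mx1-Cre and received poly(I:C), so the graft carried the genotype and the muscle of the host did not. Tumors were induced in both groups by 1 injection of 10 mg/kg azoxymethane (AOM) and 3 cycles of 3% dextran sulfate sodium (DSS), each 1 week on and 2 weeks off. Each tumor was homogenized whole and sequenced as 1 library. The tumors came from 2 transplantation experiments. BMT18 held Dnmt3a(+/+) BM tumors 1 and 2 and Dnmt3a(+/-) BM tumors 1 and 2, and BMT8 held Dnmt3a(+/+) BM tumor 3 and Dnmt3a(+/-) BM tumors 3 and 4.

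Smooth muscle shortens when myosin filaments pull on actin filaments that are anchored, through dense bodies and dense plaques, to a network of intermediate filaments. In the colon most of it lies outside the mucosa, in the muscularis propria, with a thin sheet in the muscularis mucosae and more around vessels. An adenoma grows from the epithelium, so a dissected tumor can hold much muscle or almost none. Acta2 and Tagln are also made by myofibroblasts and pericytes, whereas Myh11, Des, Cnn1, Lmod1 and Actg2 are more restricted to differentiated muscle. In RNA from a whole tumor, fewer muscle cells and less RNA per muscle cell cannot be told apart.

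Libraries held 38472738 to 64314999 counts. Epithelial keratins and Epcam were abundant in all 7, with a summed level of 10 epithelial genes between 10820 and 38800 counts per 1000000 library counts (CPM, with TMM scaling). Between groups, 9 of the 10 epithelial genes lay below 0 on the log2 scale (median -0.57, or -0.28 without Dnmt3a(+/+) BM tumor 3), and none passed the adjusted test. Other markers set single pieces apart. Genes of stratified squamous epithelium (Krt5, Krt13, Krt14, Krt6a and Trp63) summed to 25100 CPM in Dnmt3a(+/+) BM tumor 1 and to 25630 in Dnmt3a(+/-) BM tumor 1, to between 4495 and 5351 in 4 tumors, and to 245.3 in Dnmt3a(+/-) BM tumor 2, where Krt5 stood at 0.08149, and 4 of the 5 lay below 0 between groups with none called. The summed level of the 9 leukocyte genes ran from 165.2 to 2697 CPM, much of it from Cd74 alone, at 73.37 to 2587 CPM. Of the 8 tested, 5 lay above 0 between groups with none called. Of 6 mesothelial markers Muc16 was not analysed here, 3 were too low to test, and Msln, which is also made by epithelial tumors, carried nearly all of the sum of 3.95 to 112.4 CPM, with both tested genes above 0 and none called.

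The summed level of the 10 contractile genes differed widely from piece to piece. It was 1028, 884.5 and 45.24 CPM in Dnmt3a(+/+) BM tumors 1 to 3, and 704.3, 288.5, 1330 and 384.5 CPM in Dnmt3a(+/-) BM tumors 1 to 4. Dnmt3a(+/-) BM tumor 3 held the most and Dnmt3a(+/+) BM tumor 3 the least, at 3.4% of the highest sum. To keep the most abundant genes from carrying the value, a muscle gauge was set for each tumor as the mean log2 CPM of the 10 genes. Genes with a wider range still weigh more in its differences between tumors. The SD of log2 CPM ran from 0.43 for Smtn to 2.96 for Myh11. From the highest, the gauge was 6.53 in Dnmt3a(+/-) BM tumor 3, 6.08 and 5.93 in Dnmt3a(+/+) BM tumors 1 and 2, 5.67 in Dnmt3a(+/-) BM tumor 1, 4.73 in Dnmt3a(+/-) BM tumor 4, 4.22 in Dnmt3a(+/-) BM tumor 2 and 0.59 in Dnmt3a(+/+) BM tumor 3. The groups overlapped, and 1 Dnmt3a(+/+) BM piece lay below all others, with 3.63 log2 units between it and the next. Each piece was sequenced once, so the neighbours in this order have no replicate error of their own.

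**Figure D1:**
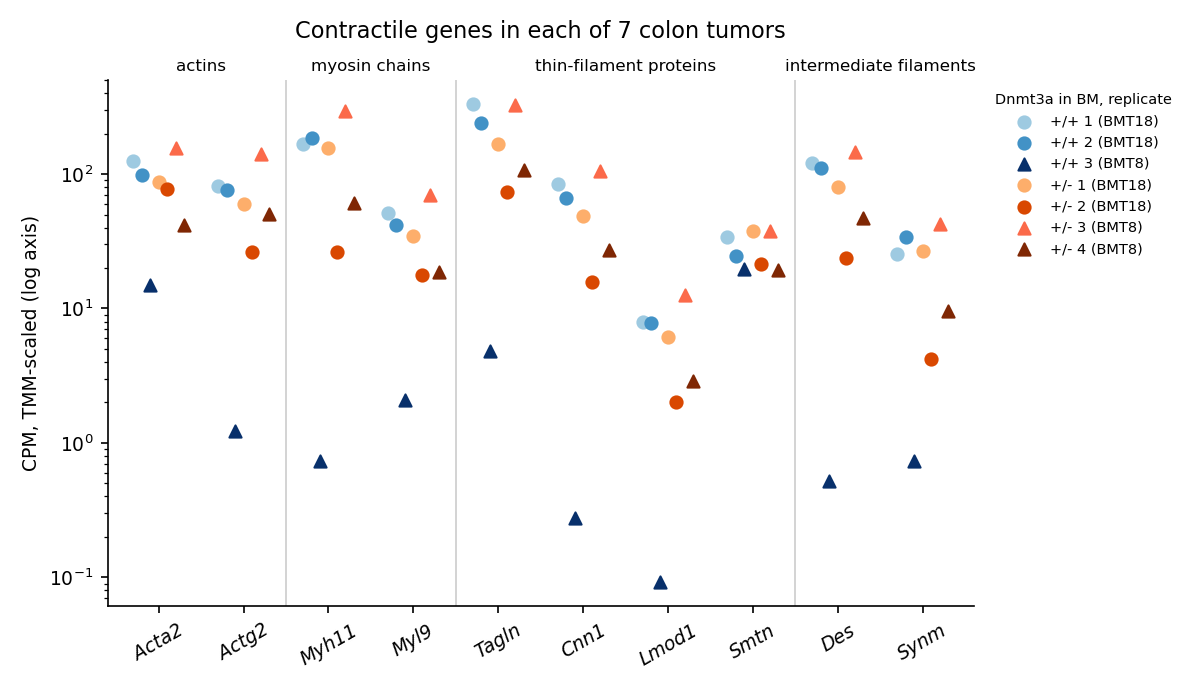
Level of each contractile gene in CPM (log axis) in the 7 tumors, with genes grouped by role, circles for BMT18 and triangles for BMT8, blue for Dnmt3a(+/+) BM and orange to brown for Dnmt3a(+/-) BM. Dnmt3a(+/+) BM tumor 3 (dark blue triangle) is lowest for 9 of the 10 genes, at 0.734 CPM for Myh11 and 0.52 CPM for Des, while the 7 values of Smtn stay between 19.19 and 37.59 CPM.

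Both muscle actins build the thin filament. Acta2 (smooth muscle alpha-actin, chr19:34241090-34255590, minus strand, GRCm38) stood at 125.5, 97.67 and 14.96 CPM in the Dnmt3a(+/+) BM tumors and at 87.01, 78.01, 155.2 and 41.93 CPM in the Dnmt3a(+/-) BM tumors. Its groups overlapped, the lowest value was that of Dnmt3a(+/+) BM tumor 3, and it kept 13.4% of the mean of Dnmt3a(+/+) BM tumors 1 and 2 there. Actg2 (gamma-actin of enteric smooth muscle, chr6:83512905-83536265, minus strand) stood at 80.98, 75.97 and 1.22 CPM against 59.91, 26.51, 139.9 and 50.07 CPM. The same tumors were highest and lowest as for Acta2, but the span was wider, with 1.56% of the mean of tumors 1 and 2 left in Dnmt3a(+/+) BM tumor 3. The longest transcripts of the 2 actins were 84.1% identical over 1143 aligned bases, and none of the 1986 stretches of 50 bases in Acta2 recurred in Actg2, so reads of 100 bases could be told apart between them.

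The myosin chains differed in their range. Myh11 (smooth muscle myosin heavy chain, chr16:14194535-14291372, minus strand), the motor itself, stood at 166, 187 and 0.734 CPM in the Dnmt3a(+/+) BM tumors and at 156.3, 26.32, 296.5 and 61.07 CPM in the Dnmt3a(+/-) BM tumors. The highest tumor held 403.9 times the lowest, which rested on 24 counts. Myl9 (regulatory light chain, chr2:156775420-156781658, plus strand), the subunit phosphorylated to start contraction, had a narrower range, with 51.26, 41.73 and 2.08 CPM against 34.38, 17.89, 69.99 and 18.68 CPM. Both chains were lowest in Dnmt3a(+/+) BM tumor 3 and highest in Dnmt3a(+/-) BM tumor 3, and for both the groups overlapped.

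Tagln (transgelin, chr9:45929619-45936058, minus strand), an early marker of the lineage, was the most abundant member per length in 6 of 7 tumors. It stood at 332.9, 238.1 and 4.86 CPM against 168.1, 73, 324.6 and 107.1 CPM, and was the only member with its highest value in Dnmt3a(+/+) BM tumor 1. Cnn1 (calponin, chr9:22099216-22109630, plus strand), which binds actin and slows myosin's ATPase, stood at 84.12, 66.54 and 0.275 CPM against 48.48, 15.67, 105 and 27.06 CPM, a span of 381.6-fold with 9 counts in the lowest tumor. Lmod1 (leiomodin, chr1:135324807-135368065, plus strand), which starts new actin filaments, was the least abundant member per length in all 7 tumors. It stood at 7.93, 7.84 and 0.0918 CPM against 6.11, 2.02, 12.55 and 2.87 CPM, and since the lowest value is 3 counts no fold was taken from it. For all 3 genes Dnmt3a(+/+) BM tumor 3 was lowest, the other 6 tumors had overlapping groups, and Dnmt3a(+/-) BM tumor 2 came next from the bottom.

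The intermediate filament genes followed. Des (desmin, chr1:75360329-75368579, plus strand) stood at 120.1, 110.6 and 0.52 CPM against 79.87, 23.55, 145.6 and 47.01 CPM, a 280-fold span. Synm (synemin, chr7:67730160-67759742, minus strand), a large partner that builds filaments together with desmin, stood at 25.23, 34.3 and 0.734 CPM against 26.72, 4.18, 42.61 and 9.52 CPM. The order of the 7 tumors was the same for both genes except among Dnmt3a(+/+) BM tumors 1 and 2 and Dnmt3a(+/-) BM tumor 1.

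Smtn (smoothelin, chr11:3517523-3540612, minus strand) stood apart from the other 9. It stood at 33.83, 24.78 and 19.76 CPM against 37.48, 21.37, 37.59 and 19.19 CPM, a span of 1.96-fold. The lowest tumor was Dnmt3a(+/-) BM tumor 4, and Dnmt3a(+/+) BM tumor 3 still held 67.4% of the mean of Dnmt3a(+/+) BM tumors 1 and 2, on 646 counts. The gene makes a shorter and a longer isoform, which counts per gene do not separate.

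How closely the members moved together was described gene by gene. Across the 7 tumors, Pearson's r of each gene's log2 CPM with the mean of the other 9 was between 0.94 and 0.999 for 9 members, with Spearman's coefficient from 0.893 to 1, and was 0.678 (Spearman, 0.786) for Smtn. These values are descriptions over n = 7 pieces, of which Dnmt3a(+/+) BM tumor 3 lies far from the rest, and they share each tumor's library. Without that tumor r fell to 0.754 for Acta2 and was between 0.948 and 0.997 for the other 8, and 0.788 for Smtn. When Dnmt3a(+/-) BM tumor 2 was left out as well (n = 5), r was 0.992 for Acta2, 0.759 for Smtn and between 0.887 and 0.996 for the rest.

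The members did not move in equal steps. For each unit of log2 CPM in the mean of the other 9, Myh11 moved by 1.53, Cnn1 by 1.49 and Des by 1.44, whereas Tagln moved by 1.05, Myl9 by 0.81, Acta2 by 0.50 and Smtn by 0.13. In Dnmt3a(+/+) BM tumor 3, after centring over the 7 tumors, the departure from the mean of the other members was 4.22 log2 units for Smtn and 2.23 for Acta2, and -2.18, -2.16 and -2.01 for Cnn1, Myh11 and Des. In Dnmt3a(+/-) BM tumor 2 it was 0.85 for Acta2 and -0.97 for Synm. In the other 5 tumors departures stayed within 0.76 log2 units except for Smtn.

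**Figure D2:**
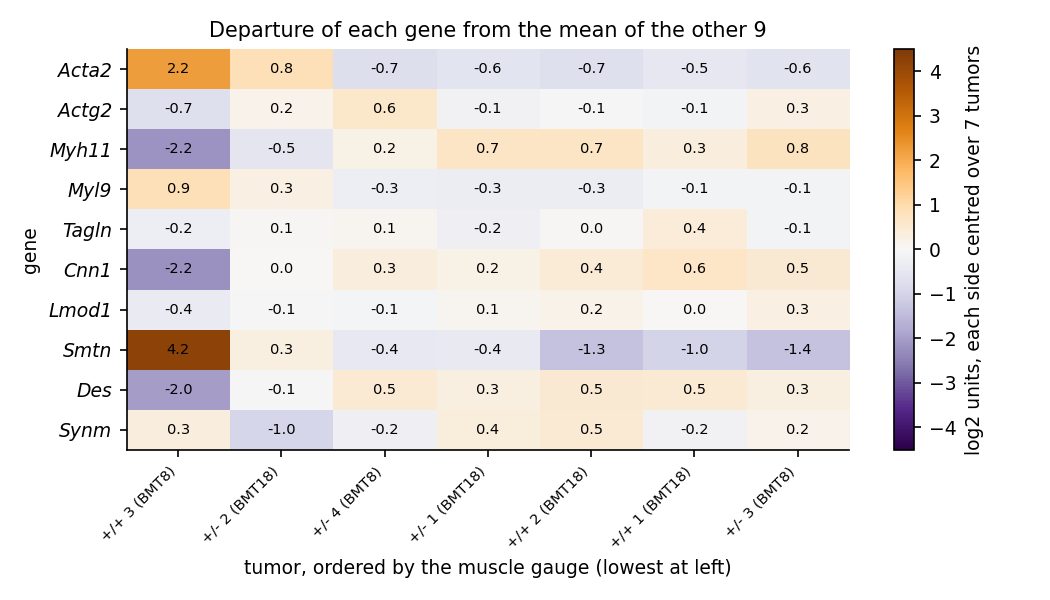
Departure of each gene (rows) in each tumor (columns, ordered by the muscle gauge) from the mean of the other 9, in log2 units after centring each side over the 7 tumors. The leftmost column, Dnmt3a(+/+) BM tumor 3, runs from 4.2 for Smtn to -2.2 for Cnn1 and Myh11, and the other columns are paler.

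Ratios between members, on CPM per kilobase of exon, show the same in each piece. Acta2 stood at 1.81 to 2.62 times Myh11 in 5 tumors, 10.26 times in Dnmt3a(+/-) BM tumor 2 and 70.51 times in Dnmt3a(+/+) BM tumor 3. Tagln stood at 4.25 to 6.41 times Cnn1 in 6 tumors and at 24.31 times in Dnmt3a(+/+) BM tumor 3. Cnn1 stood at 0.726 to 0.990 times Des in all 7, so this pair kept its proportion while both fell to a few counts. In Dnmt3a(+/+) BM tumor 3 the order per length was Acta2, Smtn, Tagln and Myl9, while Myh11 came after Des and Cnn1.

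Serum response factor binds the CArG box, a run of 6 bases of A or T between CC and GG, and through it myocardin and its relatives drive contractile genes. Close to a RefSeq start site, Myl9 carries this box, and Acta2 and Synm carry stretches with 1 base of the 6 outside A or T. Windows from 250 bases before to 50 after a RefSeq start site (GRCm38.p6) were found for 7 of the 10 members, and none for Actg2, Myh11 and Tagln. An exact box stood in 1 of the 7, that of Myl9, and a box with at most 1 base outside A or T in 3 of the 7, against 1.63% and 9.98% of all 32851 windows. The box reads the same by this pattern on both strands. Exact and near matches are shown in capitals below, 5′ to 3′ on the gene's strand, because they are what these 3 windows share. Positions are counted from the start site. The first base of a match lay at -84 and -34 in Acta2, at -161 and -99 in Myl9, where the first is exact, and at -239 in Synm.
Acta2, chr19:34255378-34255477, minus strand: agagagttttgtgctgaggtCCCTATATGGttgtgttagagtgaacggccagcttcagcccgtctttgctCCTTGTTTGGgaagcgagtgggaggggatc
Myl9, chr2:156775283-156775394, plus strand: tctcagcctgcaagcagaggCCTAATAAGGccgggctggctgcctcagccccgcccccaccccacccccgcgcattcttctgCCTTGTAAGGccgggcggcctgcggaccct
Synm, chr7:67759952-67759992, minus strand: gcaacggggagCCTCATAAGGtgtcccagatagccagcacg
These letters are a description of the windows. The 3 genes differed in their range, with SDs over the 7 tumors of 1.15, 1.68 and 2.08 in log2 CPM for Acta2, Myl9 and Synm. Of the 4 members with no match in their windows, Cnn1, Des and Lmod1 had larger SDs than these 3, of 2.89, 2.81 and 2.21, and Smtn a smaller one, of 0.43.

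The regulators of the program were next examined, from a list of 6. Srf, the factor that binds the box, stood between 32.96 and 60.58 CPM, Mrtfa between 22.14 and 28.22 CPM and Mrtfb between 24.87 and 36.61 CPM, so none of the 3 followed the range of the contractile genes. Myocd, the muscle-restricted cofactor of Srf, was scarce, with at most 0.468 CPM, and had no count in Dnmt3a(+/+) BM tumor 3, where 3 counts come to 0.0918 CPM. Foxf1, a factor of gut mesenchyme, was highest in Dnmt3a(+/-) BM tumor 2 at 10.47 CPM, against 1.85 to 5.27 CPM in the other 6. None of the 6 passed the test between groups (smallest adjusted p = 0.518).

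The main question of the design is whether tumors under Dnmt3a(+/-) BM differed from tumors under Dnmt3a(+/+) BM. No contractile gene passed the test between the groups. With edgeR's quasi-likelihood test over 15810 genes, Benjamini-Hochberg adjustment and a call at an adjusted p under 0.05 with an absolute log2 fold change over 1, 0 members were called, as were 0% of all genes. At an unadjusted p under 0.05, edgeR listed 0 members and 11.0% of all genes. With DESeq2, 0 members were called and 1.90% of all genes. The groups did not overlap for 12.4% of all genes and for 0 of the 10 members. The log2 fold change (Dnmt3a(+/-) minus Dnmt3a(+/+)) was above 0 for 7 members, against 50.2% of all genes, with a median of 0.15 beside 0.003 over all genes.

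Single values ran from -0.19 ± 1.06 (SE) for Tagln to 0.39 ± 1.08 for Actg2, with adjusted p of 0.968 and 0.929 (edgeR). Myh11 had 118 ± 102 CPM (SD, n = 3) against 135 ± 121 CPM (n = 4), and its log2 fold change of 0.20 had a 95% interval from -2.91 to 3.30. Smtn had the narrowest interval, from -0.58 to 0.88 around 0.15, and an adjusted p of 0.906. In the two-sided exact permutation test of log2 CPM over the 35 splits of the 7 tumors, p ranged from 0.5429 for Actg2 to 0.8286 for Tagln, where the smallest p possible is 0.0286. The median SE of the members was 1.09 log2 units, against 0.30 over all genes. The intervals of the 9 members other than Smtn reached past a log2 change of 1 in both directions, so a change of that size was not detectable at this spread.

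The direction rested on single pieces. Without Dnmt3a(+/+) BM tumor 3 all 10 members were lower under Dnmt3a(+/-) BM, with a median of -0.40, and without Dnmt3a(+/-) BM tumor 2 all 10 were higher, with a median of 0.36. All 10 were also lower without Dnmt3a(+/-) BM tumor 3 (median -0.53) and higher without Dnmt3a(+/+) BM tumor 1 (median 0.53). Tagln, for example, stood at -0.76 ± 0.57 (SE) without Dnmt3a(+/+) BM tumor 3 and at 0.10 ± 1.16 without Dnmt3a(+/-) BM tumor 2. In neither of these fits did a member reach an unadjusted p under 0.05, against 12.2% and 7.16% of all genes. The gauge was 4.20 ± 3.13 (SD, n = 3) under Dnmt3a(+/+) BM and 5.29 ± 1.02 (n = 4) under Dnmt3a(+/-) BM, a difference of 1.09 that was smaller than the pooled SD of 2.13, and without Dnmt3a(+/+) BM tumor 3 it was -0.72.

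**Figure D3:**
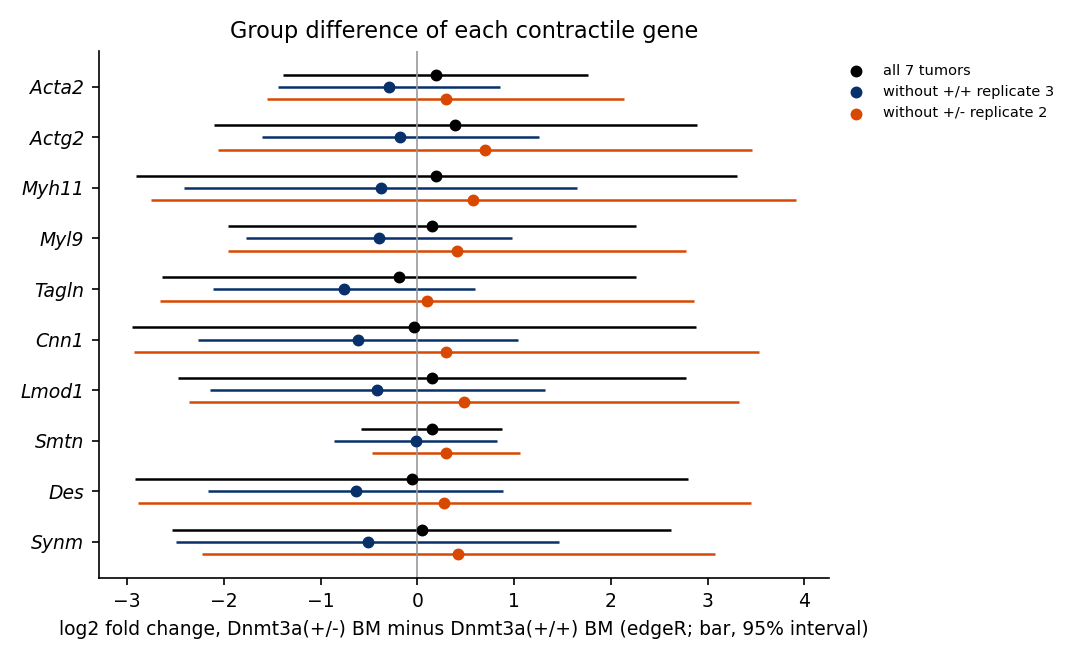
Log2 fold change of each contractile gene, Dnmt3a(+/-) BM minus Dnmt3a(+/+) BM, with its 95% interval from edgeR, with all 7 tumors (black), without Dnmt3a(+/+) BM tumor 3 (blue) and without Dnmt3a(+/-) BM tumor 2 (orange). All intervals span 0, the blue points lie below 0 and the orange points above it.

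Within the experiments the groups stood in opposite order. In BMT18 both Dnmt3a(+/-) BM tumors had a lower gauge (5.67 and 4.22) than both Dnmt3a(+/+) BM tumors (6.08 and 5.93), a difference of -1.06. In BMT8 both Dnmt3a(+/-) BM tumors (6.53 and 4.73) lay above the single Dnmt3a(+/+) BM tumor (0.59), a difference of 5.04. Member by member, 8 of the 10 followed this order in both experiments, all but Smtn and Synm, against 5.52% of all genes. In edgeR's quasi-likelihood test of the group by experiment term, 9 members were under an unadjusted p of 0.05, all but Smtn, beside 4.62% of all genes. Their log2 terms ran from 3.15 for Acta2 to 9.12 for Cnn1, against 0.52 for Smtn, and the adjusted p was 1 for all 10. With DESeq2 8 members were called, all but Acta2 (adjusted p = 0.0814) and Smtn, beside 0.633% of all genes. In BMT8 1 group is 1 tumor, Dnmt3a(+/+) BM tumor 3, so this term cannot be told apart from that piece. Between BMT8 and BMT18 themselves no member was called in the fit with group and experiment, beside 0.00633% of all genes, and none had an unadjusted p under 0.05, beside 19.4% of all genes. Here the members' log2 differences, BMT8 minus BMT18, lay between -0.78 for Acta2 and -0.25 for Smtn (unadjusted p from 0.378 to 0.822).

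Dnmt3a(+/+) BM tumor 3 was the lowest of the 7 for 9 members, against 19.7% of all genes, and 8 members had less than 10% of the mean of Dnmt3a(+/+) BM tumors 1 and 2 there, against 2.48% of all genes. This piece was singled out by the gauge, the mean of the same members, which move together. These counts therefore describe the piece and are not a test. The epithelial sum was at its highest in the same piece, at 38800 CPM against 10820 to 25520 CPM in the other 6, and so were 8 of its 10 genes, all but Cdh1 and Cdx2. The leukocyte sum was also highest there, at 2697 against 165.2 to 1209 CPM, through Cd74 at 2587 CPM alone. Other leukocyte genes were not, with Lyz2 at 37.65 CPM against 358.4 CPM in Dnmt3a(+/-) BM tumor 2 and Csf1r at 12.6 against 42.03 CPM. The 11 fibroblast genes summed to 362.5 CPM there, against 326 and 206 CPM in Dnmt3a(+/+) BM tumors 1 and 2. In the Dnmt3a(+/-) BM tumors that sum was 279.7 to 1116 CPM. The 8 endothelial genes summed to 25.79 CPM in this piece, above the 16.55 and 13.64 CPM of Dnmt3a(+/+) BM tumors 1 and 2. This endothelial sum lay below that of every Dnmt3a(+/-) BM tumor, at 30.52 to 124.5 CPM. Col3a1, a fibrillar collagen, at 129 CPM, and Dcn, a matrix proteoglycan, at 87.05 CPM carried most of the fibroblast sum, whereas Pdgfra at 2.69 CPM and Postn at 11.1 CPM were at their lowest of the 7 tumors in this piece. The part of each cell type in these values was not tested.

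**Figure D4:**
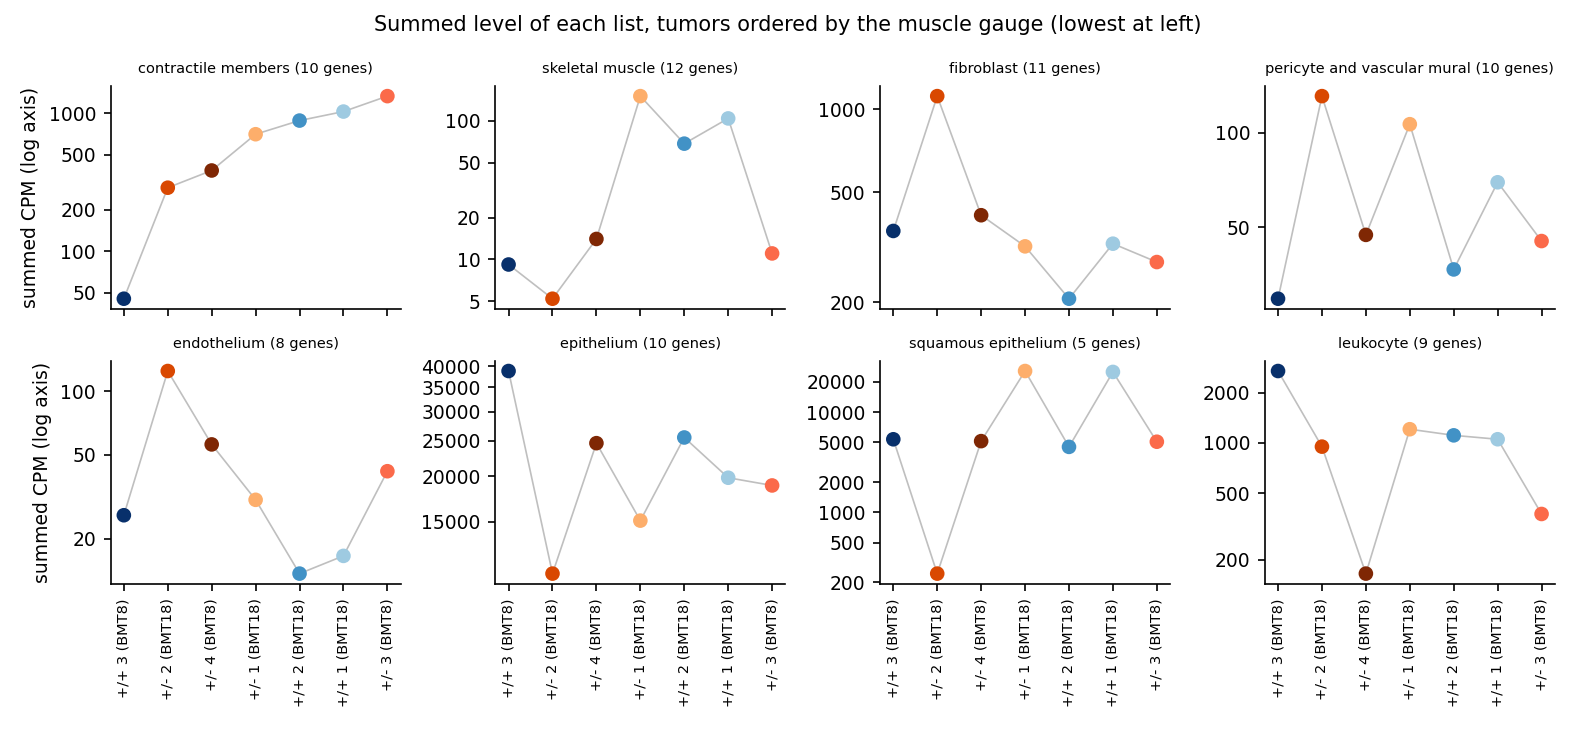
Summed CPM (log axis, a scale for each panel) of the 10 contractile genes and of 7 marker lists, with tumors ordered by the muscle gauge from lowest to highest and coloured as in the plot of single genes. The contractile sum rises from 45.24 to 1330 by this ordering, and no other panel rises with it throughout: fibroblast and endothelial genes peak in Dnmt3a(+/-) BM tumor 2, skeletal muscle genes in Dnmt3a(+/-) BM tumor 1.

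The second lowest piece, Dnmt3a(+/-) BM tumor 2, had another makeup. Its contractile sum was 288.5 CPM, while the fibroblast genes reached 1116 CPM against 206 to 413.3 CPM in the other 6, with Col1a1 at 238.6 CPM against 13.22 to 43.34 CPM. Endothelial genes reached 124.5 CPM against 13.64 to 55.88 CPM. Markers of pericytes and vascular mural cells summed to 130.6 CPM against 29.55 to 106.3 CPM and did not move as one. Rgs5 was at 44.09 CPM against 2.05 to 9.98 CPM elsewhere. Pdgfrb (23.65 against 2.60 to 4.02 CPM), Kcnj8 (14.38 against 2.63 to 6.43 CPM) and Abcc9 (7.27 against 0.306 to 2.71 CPM) were also highest there. In contrast, Notch3 was at 4.93 CPM against up to 46.96 CPM, and Ndufa4l2 at 0.835 CPM and Cspg4 at 1.59 CPM were at their lowest of the 7. Acta2, which such cells also make, was at 78.01 CPM in this piece, while Myh11 was at 26.32 CPM, Cnn1 at 15.67 CPM and Synm at 4.18 CPM. The fibroblast list had 9 of 10 tested genes above 0 between groups with a median of 0.59, the mural list 8 of 8 with 0.65 and the endothelial list 8 of 8 with 1.67. Without Dnmt3a(+/-) BM tumor 2 the fibroblast, mural and endothelial medians were 0.175, 0.574 and 1.246. Without Dnmt3a(+/+) BM tumor 3 they were 0.673, 0.421 and 2.027. No gene of the 3 lists passed the adjusted test, and at an unadjusted p under 0.05 they held 1, 1 and 6 genes, beside 11.0% of all genes. Their part in the level of Acta2 was not tested.

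Striated muscle was read from its own genes. The 12 skeletal muscle genes summed to 104.1, 68.44 and 9.18 CPM in the Dnmt3a(+/+) BM tumors and to 150.8, 5.20, 11.03 and 14.03 CPM in the Dnmt3a(+/-) BM tumors. The 3 high pieces, Dnmt3a(+/+) BM tumors 1 and 2 and Dnmt3a(+/-) BM tumor 1, were all from BMT18, and 2 of them also held the most squamous keratin. Ckm, the creatine kinase of muscle, stood at 20.55, 9.31 and 23.43 CPM in these 3 and at 0.0612 to 4.92 CPM in the other 4. Dnmt3a(+/-) BM tumor 3, with the highest smooth muscle gauge, had 11.03 CPM of the skeletal genes, so the 2 kinds of muscle genes did not share an order. Between groups 3 of the 11 tested skeletal genes lay above 0 and 8 below, with none called. Des and Synm are used by both kinds, and the part of striated muscle in their levels was not tested. Of 5 cardiac genes Myh6 and Nppa were at 0 in all tumors, and Tnnt2, at 9.71 to 24.81 CPM, made up most of the sum, with both tested genes above 0 and none called.

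Other genes of the contractile apparatus were taken from a list of 20 for the thin filament, the dense plaque and the membrane. Of these, 12 lay above 0 between groups and 8 below, with a median of 0.05 (-0.12 without Dnmt3a(+/+) BM tumor 3), and none was called. Fhl1, a LIM-domain protein of muscle, had 209 ± 107 CPM (SD, n = 3) against 77.5 ± 47.9 CPM (n = 4). It was the only gene of the list at an unadjusted p under 0.05 and had an adjusted p of 0.435 (edgeR), and it was named after its values were seen. The most abundant, Tpm1, Flna, Csrp1 and Actn1, are made by many cell types. Tpm1, tropomyosin, ran from 390 to 606.4 CPM and Flna, an actin cross-linker, from 133.2 to 346.1 CPM, with 592.8 and 133.2 CPM in Dnmt3a(+/+) BM tumor 3. The summed level of the 20 genes had a span from 1677 to 2366 CPM, much narrower than that of the 10 members, and was lowest in Dnmt3a(+/+) BM tumor 3.

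The signaling genes that set the force of contraction differed in their range. Rhoa, the small GTPase upstream of Rock1 and Rock2, ran from 376 to 518.9 CPM, and these 2 kinases from 87.52 to 188.1 CPM and from 105.1 to 126.6 CPM. Ppp1r12a, the targeting subunit of myosin phosphatase, ran from 32.62 to 52.42 CPM. Its muscle-enriched relative Ppp1r12b ran from 2.36 to 19.45 CPM and Ppp1r14a, an inhibitor of the phosphatase, from 0.826 to 4.89 CPM, both lowest in Dnmt3a(+/+) BM tumor 3. Of 8 genes 7 were tested and Prkg1 was too low, 3 lay above 0 between groups and 4 below, and none was called (smallest adjusted p = 0.51). Among 13 channels and receptors, 9 lay above 0 and 4 below, with a median of 0.07 (-0.11 without Dnmt3a(+/+) BM tumor 3) and none called. The most abundant were Pde5a, which breaks down cGMP, at 29.79 to 57.76 CPM, and the calcium release channel Itpr1 at 14.44 to 36.53 CPM. Both were lowest in Dnmt3a(+/+) BM tumor 3 and highest in Dnmt3a(+/-) BM tumor 2.

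Cells that lie within the muscle wall were checked by their markers. Ano1, a chloride channel of interstitial cells of Cajal, the pacemakers of the gut, was abundant at 86.4 to 293.8 CPM, but it is also made by epithelial tumors, and Kit, which mast cells share, was highest at 25.18 CPM in Dnmt3a(+/-) BM tumor 2. Of the 3 genes of this list 2 lay above 0 between groups, and none was called. Of 9 enteric neuron genes 3 were too low to test, and the sum was 10.41 to 12.9 CPM in the Dnmt3a(+/+) BM tumors and 22.01 to 41.07 CPM in the Dnmt3a(+/-) BM tumors. Of it, the receptor gene Ret gave 4.97 to 8.23 CPM and 11.95 to 35.2 CPM, with an adjusted p of 0.361 (edgeR), and all 6 tested genes lay above 0 with none called. Elavl4 and Chat, which mark neurons, were too low to test, as were the glial Sox10 and S100b, and the 5 glial genes summed to at most 1.45 CPM. These defining markers of the nerve plexus in the muscle wall stayed under the filter, while Myh11 reached 296.5 CPM.

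The genes whose pattern was most like the gauge were found by Pearson's r of log2 CPM over the 7 tumors, among 15800 genes that are no members. Near the top were 5033417F24Rik, Chrm2, Jph2, Hspb7, Optc, Synpo2, Popdc2, Adam33 and Fxyd1, 9 genes with r from 0.979 to 0.995 and Spearman's coefficient from 0.857 to 0.964. They were picked for this r from many genes, so it is given with no test. Of these genes, 5033417F24Rik, Chrm2, Hspb7, Optc and Adam33 had no count in Dnmt3a(+/+) BM tumor 3. Their log2 CPM there rests on the prior count of 2. Synpo2, an actin-binding protein of muscle also in the list of 20, was the most abundant of the 9, at 18.7, 19.05 and 0.704 CPM against 16.82, 5.26, 18.71 and 4.92 CPM. Chrm2, the muscarinic receptor most abundant on gut smooth muscle, had no count in Dnmt3a(+/+) BM tumor 3 and stood at 0.326 to 1.73 CPM elsewhere. Without Dnmt3a(+/+) BM tumor 3 the 9 genes had r from 0.893 to 0.97, and without Dnmt3a(+/-) BM tumor 2 as well from 0.76 to 0.979. Of all genes that are no members 134 had r over 0.9, and 27 of these also without Dnmt3a(+/+) BM tumor 3. None of the 9 passed the test between groups (adjusted p from 0.863 to 0.993, edgeR).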

How the data were processed

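RNA of 7 whole colon tumors was measured, 4 with Dnmt3a(+/-) BM and 3 with Dnmt3a(+/+) BM, 1 library each. The authors selected poly(A) RNA, made libraries with a directional kit, and processed the reads with Trimmomatic (trimming), STAR (alignment to mm10) and RSEM (counts per gene). The deposited values are the estimated counts that the authors made with RSEM, 100% of them whole numbers, without scaling. The annotation release is not given in the sources used here, nor is a strand setting. Tagln and Synm overlap exons of Pcsk7 and Ttc23 on the opposite strand, and Smtn those of 2 little-read genes, so reads there could be shared. Names and positions come from GENCODE M21 (GRCm38), with 42462 of 43346 identifiers matched, and the rest held 0.104% of counts. Sequences come from RefSeq.

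Counts were fitted with edgeR 4.0.16 in R 4.3.3 (filterByExpr, TMM, quasi-likelihood, two-sided, Benjamini-Hochberg over 15810 genes, no covariate) with the study's thresholds. DESeq2 1.42.0, the study's tool, was the alternative, and the study's methods state no model formula. CPM are TMM-scaled, log2 CPM use a prior count of 2, and levels per length divide by summed exon length. Both fits were checked on simulated counts. The labels call the tumors biological replicates, and p-values measure the spread between these tumors. Intervals of fold changes are 95%. Values of 3 counts or fewer gave no fold.

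Named were all 10 members and, of the 10 genes most like the gauge, 9. Of the other lists, genes were named from the up to 4 of highest mean CPM, but not always all of these. No endothelial gene was named. Results of some genes are not reported here. Others were named after their values were seen: Trp63, Fhl1, Myocd, Pdgfra, Postn, Cspg4, Pdgfrb, Kcnj8, Abcc9, Cdh1, Cdx2, Ppp1r12b, Ppp1r14a and genes too low to test. The members and the 17 lists were chosen with earlier results of these data known. Alternatives were other scalings, filters, dispersions and thresholds, experiment or replicate number as a term, BMT18 alone and each tumor left out.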

Additional observations from a re-analysis of the deposited data

Results flagged for a closer look

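The muscle gauge stood in opposite order in the 2 experiments. The difference between Dnmt3a(+/-) BM and Dnmt3a(+/+) BM was -1.061 log2 units in BMT18, where both Dnmt3a(+/-) BM tumors lay below both Dnmt3a(+/+) BM tumors, and 5.042 in BMT8, where both lay above the only Dnmt3a(+/+) BM tumor. The difference between experiments was not tested for the gauge, and for single genes it was tested as given above.

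Among the 4 Dnmt3a(+/-) BM tumors, the log2 of the summed CPM of enteric neuron genes was 4.46 in tumor 1, below the other 3 by 0.884 of the range, over Dixon's 95% critical value for 4 samples. This was 1 of 27 values examined, of which chance gives 1.35.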

How the results depend on the processing

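No member was called between groups under any setting, and 0 genes were called with edgeR in every leave-one-out fit, against 300 genes with DESeq2. Signs were unstable, always far from the threshold. With library size only, Des was 0.089 and Cnn1 0.122. With experiment as a covariate, Des was 0.397, Tagln 0.262 and Cnn1 0.325. Replicate numbers did not pair the tumors: deviations of same-numbered tumors correlated by 0.568, 0.071 and -0.038, and Dnmt3a(+/-) BM tumor 4 has no partner. With the replicate block, Des was 0.268, Tagln 0.195 and Cnn1 0.198, and no member was called. In BMT18 alone 1 member lay above 0, and Acta2 was -0.424, Actg2 -0.856, Myh11 -0.952, Myl9 -0.825, Lmod1 -0.953 and Synm -0.948. Leaving out both Dnmt3a(+/+) BM tumor 3 and Dnmt3a(+/-) BM tumor 2, chosen after seeing the data, left 2 members above 0, with Acta2 at -0.236, Myh11 -0.044, Myl9 -0.18, Lmod1 -0.134 and Synm -0.18. For the group by experiment term DESeq2 called 8 members and edgeR 0.

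Leaving out each tumor in turn, members above 0 ranged from 0 (without Dnmt3a(+/+) BM tumor 3 or Dnmt3a(+/-) BM tumor 3) to 10, their median from -0.532 to 0.531, genes at an unadjusted p under 0.05 from 883 (without Dnmt3a(+/+) BM tumor 2) to 2143, with 1114 without Dnmt3a(+/-) BM tumor 2, and the gauge difference from -0.716 to 2.029. Acta2 ranged from -0.294 to 0.678, Actg2 from -0.211 to 0.831, Myh11 from -0.536 to 0.694, Myl9 from -0.42 to 0.676, Tagln from -0.759 to 0.463, Cnn1 from -0.725 to 0.545, Lmod1 from -0.528 to 0.557, Smtn from -0.017 to 0.372, Des from -0.636 to 0.405 and Synm from -0.576 to 0.674. The cause was not tested. Under other scalings and a prior count of 0.5 the gauge of Dnmt3a(+/+) BM tumor 3 stayed between 0.367 and 0.589, the lowest of the 7. The lowest values of Lmod1, Cnn1 and Des rest on 3, 9 and 17 counts.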
